A study of Homo sapiens with 9 samples.

Results

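The genes described are 133 of the 57500 genes counted in BJAB cells and were selected on their levels in the TACI short libraries alone. CPM is the count of a gene per 1000000 counts of its library. A gene entered the set when its mean CPM in TACI short replicates 2 and 3 was at least 5 and at least 6 times its CPM in TACI short replicate 1, with a floor of 0.01 CPM. Of the set, 132 genes are protein-coding and 1 is an antisense RNA, and a few members are not described individually here. The differences among the TACI short libraries therefore chose the members, and every value from those libraries is given as a description, with no test. SPP1 had the highest level of any member, so the genes are called the SPP1-led set.

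BJAB cells are a human B-cell line in long use, described in the labels as Burkitt lymphoma. The receptor TACI is the product of TNFRSF13B and binds the cytokines BAFF and APRIL. The 9 libraries are 3 of BJAB cells carrying the short isoform (TACI short), 3 of BJAB cells carrying the long isoform (TACI long) and 3 of BJAB cells without an introduced isoform (control), all untreated and all made from polyadenylated RNA of sorted cells. The titles describe stable transfection and the design text transduction. Whether a line is 1 clone, which promoter drives the transgene, which marker was sorted on and whether replicates are separate cultures is not given in the sources used here, so a p-value here speaks only to the spread among these libraries. TNFRSF13B stood at 2964, 2965 and 2655 CPM in TACI short replicates 1 to 3, at 691, 705 and 738 CPM in TACI long and at 28.8, 15.2 and 14.6 CPM in control. Total counts ran from 40322136 to 50079203 per library. TACI short replicates 2 and 3 stood apart in the number of genes with a count, 32882 and 32209, against 24307 to 25938 in the other 7 libraries.

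Macrophages are tissue phagocytes that arise from monocytes or from embryonic precursors. They take up debris and modified lipoproteins through scavenger receptors, sense microbes with pattern recognition receptors and signal through Fc and TREM receptors by way of the adaptors FCER1G and TYROBP. When activated they secrete cytokines, neutrophil-attracting chemokines, matrix proteins and proteases. Several of these genes, such as SPP1, CHI3L1 and MMP14, are also made by other cells, among them fibroblasts, osteoblasts and tumour cells.

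The 250 bases before the RefSeq start of 4 members are shown because these genes have differing roles in the set, a secreted matrix protein (SPP1), a cytokine (IL1B), a chemokine (CXCL8) and a signalling adaptor (TYROBP), and were searched for the same motifs. They are read 5′ to 3′ on the strand of the gene from RefSeq, build GRCh38.p14, at chr4:87975464-87975713 (plus) for SPP1, chr2:112836780-112837029 (minus) for IL1B, chr4:73740319-73740568 (plus) for CXCL8 and chr19:35908296-35908545 (minus) for TYROBP. Capitals mark matches to the motifs named in the next paragraph.
SPP1: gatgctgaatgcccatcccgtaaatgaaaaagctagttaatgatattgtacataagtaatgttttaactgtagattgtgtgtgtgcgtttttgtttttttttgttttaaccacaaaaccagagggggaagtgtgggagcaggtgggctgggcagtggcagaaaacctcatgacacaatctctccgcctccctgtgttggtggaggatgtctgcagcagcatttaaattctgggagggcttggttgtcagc
IL1B: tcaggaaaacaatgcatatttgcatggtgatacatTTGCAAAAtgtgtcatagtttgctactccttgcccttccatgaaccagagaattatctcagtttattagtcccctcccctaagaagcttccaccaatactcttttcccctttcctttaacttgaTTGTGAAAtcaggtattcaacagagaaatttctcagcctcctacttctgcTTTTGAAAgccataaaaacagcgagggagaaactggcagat
CXCL8: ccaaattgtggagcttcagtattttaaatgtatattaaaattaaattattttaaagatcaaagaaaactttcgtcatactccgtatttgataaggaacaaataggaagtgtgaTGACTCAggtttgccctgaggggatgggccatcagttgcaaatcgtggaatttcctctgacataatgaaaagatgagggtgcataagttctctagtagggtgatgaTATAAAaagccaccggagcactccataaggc
TYROBP: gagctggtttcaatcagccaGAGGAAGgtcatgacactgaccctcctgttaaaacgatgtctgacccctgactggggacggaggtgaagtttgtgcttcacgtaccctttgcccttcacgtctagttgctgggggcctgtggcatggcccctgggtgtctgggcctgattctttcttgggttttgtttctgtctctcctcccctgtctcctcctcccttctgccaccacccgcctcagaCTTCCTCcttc

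The motifs were the PU.1 core GAGGAAG, the AP-1 site TGANTCA, the C/EBP motif TTNNGNAA, a degenerate NF-kB motif and the TATA box TATAAA, each searched on both strands. Positions count back from -1, the base before the start, and give the first base of the match. IL1B held the C/EBP motif at -91 and -41 and, on the opposite strand, at -215. CXCL8 held AP-1 at -137 and a TATA box at -31. TYROBP held the PU.1 core at -230 and, on the opposite strand, at -11. SPP1 held none of the 5 strings in this window. No printed match overlaps another. RefSeq promoters were matched to 93 of the 131 members examined singly. The PU.1 core was in 18 of the 93 (19.4%), against 3017 of all 27305 promoters of that length. AP-1 was in 10.8% of members' promoters and 6.6% of all, NF-kB in 7.53% and 5.08%, the TATA box in 16.1% and 11.1%, and C/EBP in 33.3% and 33.6%. A match is a string of letters and shows no binding. Other forms of each site were not searched, so a promoter without a match, such as that of CXCL8 for C/EBP and NF-kB, may still hold such sites.

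All 133 members had reads in all 9 libraries. Summed over members, TACI short replicates 2 and 3 held 3398 CPM (3380 to 3416) and 3156 CPM (3141 to 3172), against 333.1 CPM (327.7 to 338.5) in TACI short replicate 1. The sums were 775.2, 678.5 and 421.3 CPM in TACI long replicates 1 to 3 and 307.6, 640.8 and 622.7 CPM in control replicates 1 to 3. The ranges in parentheses are exact 95% Poisson intervals for counting error alone. The reads carry no molecular identifiers and so may be copies of the same molecule, in which case the intervals are too narrow. The set thus made up 0.34% and 0.316% of all counts in TACI short replicates 2 and 3, 0.0421 to 0.0775% in TACI long and 0.0308 to 0.0641% in control. Outside the libraries that chose the set, the order ran TACI long 1, TACI long 2, control 2, control 3, TACI long 3, control 1, with TACI short 1 between the last pair. The lowest of the 133 counts in any library was 13 reads, in control replicate 1. In bulk RNA, fewer cells of a type and less RNA per cell cannot be told apart.

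**Figure D1:**
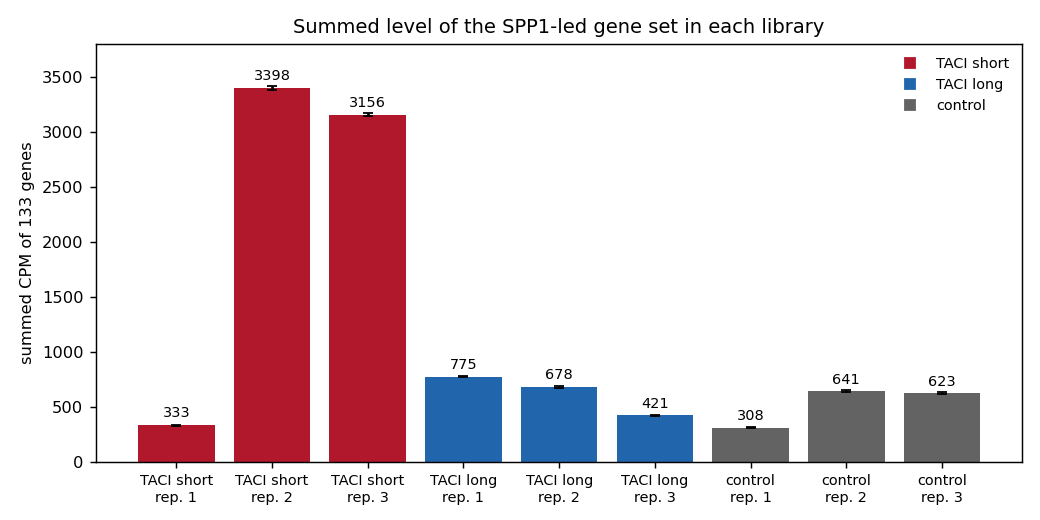
CPM summed over the 133 members in each of the 9 libraries (vertical axis, CPM; bars, 1 library each; lines, exact 95% Poisson intervals for counting error only). TACI short replicates 2 and 3 stand at 3398 and 3156 CPM, and the other 7 libraries lie between 307.6 and 775.2 CPM, with TACI long and control overlapping.

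SPP1 (osteopontin; ENSG00000118785, hg38 chromosome 4, 87975650 to 87983426, plus strand) is a secreted phosphoglycoprotein of bone matrix and of activated macrophages. It had 669, 631 and 61.2 CPM in TACI short replicates 2, 3 and 1, 151, 127 and 77.1 CPM in TACI long replicates 1 to 3, and 60.9, 128 and 120 CPM in control replicates 1 to 3. TACI long and control overlap, with the lowest control and TACI short replicate 1 at nearly the same level. SPP1 alone made up 19.8% of the set's CPM in TACI short replicates 2 and 3, the 10 most abundant members 50.2% and the top 20 61.1%.

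IL1B (ENSG00000125538, chromosome 2, 112829751 to 112836903, minus strand) encodes interleukin 1 beta, which is processed by the inflammasome. It had 218, 202 and 21.2 CPM in TACI short replicates 2, 3 and 1, 48.9, 42.4 and 26.4 CPM in TACI long and 19.1, 41.9 and 39.9 CPM in control. CXCL8 (interleukin 8; ENSG00000169429, chromosome 4, 73740506 to 73743716, plus strand) attracts neutrophils. It had 182, 166 and 14.5 CPM in TACI short replicates 2, 3 and 1, 40.3, 30.9 and 18.8 CPM in TACI long and 15.9, 34.6 and 31.3 CPM in control. MSR1 (ENSG00000038945, chromosome 8, 16107878 to 16567490, minus strand), the class A scavenger receptor that takes up modified low-density lipoprotein, had 47.3, 45.0 and 3.803 CPM in TACI short replicates 2, 3 and 1. In TACI long it had 10.8, 8.47 and 5.26 CPM and in control 4.20, 8.38 and 8.25 CPM. For each of the 3 genes the lowest control and TACI long libraries were control replicate 1 and TACI long replicate 3, as for SPP1.

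**Figure D2:**
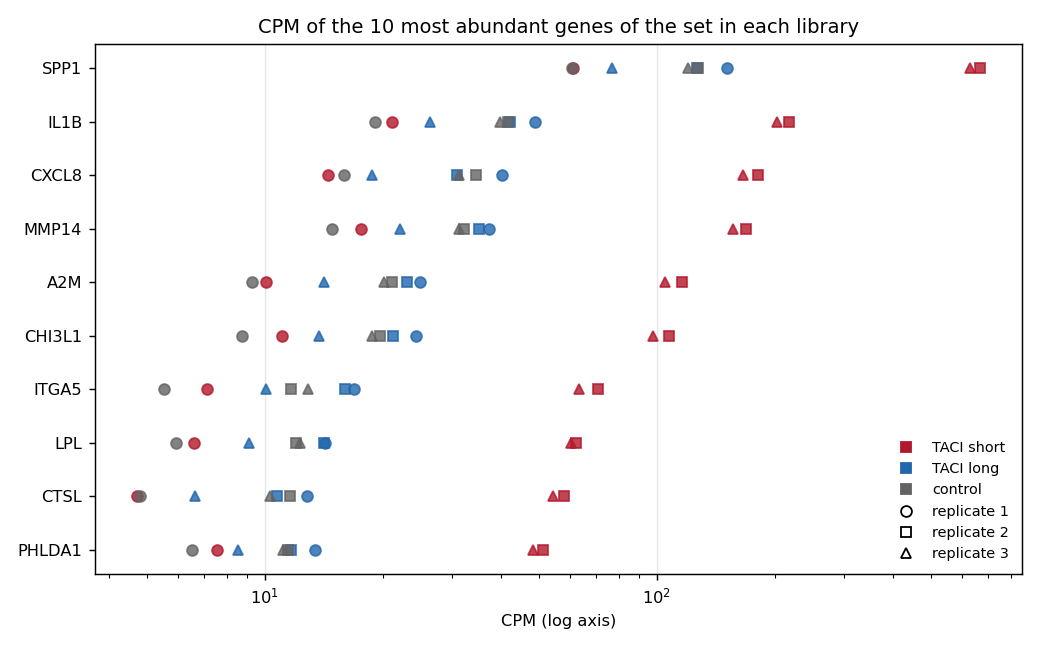
CPM of the 10 most abundant members in each library (log axis; points, 1 library each, coloured by group and shaped by replicate). In each gene TACI short replicates 2 and 3 lie together above the other 7 libraries, among which TACI long, control and TACI short replicate 1 intermingle.

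Per length, SPP1 also had the highest level, with a mean of 280.0 RPKM (CPM divided by the gene's exon length in kilobases) in TACI short replicates 2 and 3, followed by CXCL8 at 76.5 and IL1B at 67.8 RPKM. AL355075.4, the antisense RNA, came next at 66.4 RPKM. Its exons overlap those of PARP2 and RPPH1, of which 1 lies on the other strand. Reads from the shared positions cannot be assigned to a single gene, and 48 of the members share exon positions with another gene. The membrane protease gene MMP14 had 36.4 RPKM, the chitinase-like CHI3L1 30.2, FCER1G 26.6, the lysosomal protease gene CTSL 23.8 and the protease inhibitor gene TIMP1 23.2 RPKM. The protease inhibitor gene A2M had 17.3 RPKM and the lipoprotein lipase gene LPL 14.0 RPKM. The median member stood at 2.15 RPKM and 10.4 CPM, so that most of the set was of low abundance even in the libraries that chose it.

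Among secreted matrix proteins, 5 of the 15 genes listed were members (SPP1, A2M, CHI3L1, SERPINE2 and TGFBI). CHI3L1 had 108, 98.1 and 11.1 CPM in TACI short replicates 2, 3 and 1, 24.4, 21.3 and 13.7 CPM in TACI long and 8.74, 19.7 and 18.8 CPM in control. A2M had 116, 105 and 10.1 CPM in TACI short replicates 2, 3 and 1, 24.96, 23.1 and 14.2 CPM in TACI long and 9.30, 21.1 and 20.2 CPM in control. Both overlap between TACI long and control.

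Chemokines gave 5 of 25 genes in the table: CXCL8, CCL3, CCL20, CCL5 and CCL3L1. CCL3, which attracts monocytes and lymphocytes, had 18.0, 16.01 and 1.26 CPM in TACI short replicates 2, 3 and 1, 3.71, 2.63 and 1.88 CPM in TACI long and 1.35, 3.24 and 3.04 CPM in control. CCL3 and CCL3L1 are near-identical copies, so the division of reads between them is uncertain. CCL20, the ligand of CCR6, had 15.7, 14.5 and 1.19 CPM in TACI short replicates 2, 3 and 1, 3.78, 3.05 and 1.97 CPM in TACI long and 1.30, 2.80 and 2.81 CPM in control. Of 24 cytokines and growth factors, IL1B and PDGFA, a platelet-derived growth factor chain, were members.

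Of 25 scavenger and pattern recognition receptors, 5 were members: MSR1, TLR2, CD36, TREM2 and NLRP3. TLR2, a sensor of bacterial lipoproteins, had 12.03, 10.98 and 1.19 CPM in TACI short replicates 2, 3 and 1, 3.02, 2.24 and 1.25 CPM in TACI long and 1.39, 2.34 and 2.27 CPM in control. TREM2, a lipid-sensing receptor of macrophages and microglia, had 10.02, 8.57 and 0.63 CPM in TACI short replicates 2, 3 and 1, 2.01, 1.36 and 0.95 CPM in TACI long and 0.587, 1.68 and 1.41 CPM in control. NLRP3, the sensor of the inflammasome that processes interleukin 1 beta, had 9.52, 8.73 and 0.698 CPM in TACI short replicates 2, 3 and 1, 2.48, 2.17 and 1.39 CPM in TACI long and 0.652, 2.00 and 2.19 CPM in control. Each again overlaps between TACI long and control.

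The list of Fc receptor, complement and leukocyte receptor genes gave 4 of 29: FCER1G, TYROBP, the receptor gene C5AR1 and C3, a complement protein. C5AR2, a second receptor for complement C5a that the list leaves out, is also in the set. FCER1G, the Fc receptor gamma chain, had 26.4, 24.8 and 2.43 CPM in TACI short replicates 2, 3 and 1, 6.95, 5.44 and 3.87 CPM in TACI long and 3.41, 5.72 and 5.25 CPM in control. TYROBP (DAP12), the adaptor through which TREM2 signals, had 12.4, 10.7 and 0.968 CPM in TACI short replicates 2, 3 and 1, 2.98, 1.91 and 1.51 CPM in TACI long and 0.87, 2.46 and 1.86 CPM in control. The receptor and its adaptor were thus both present at low CPM outside TACI short replicates 2 and 3.

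Integrin and adhesion genes gave 5 of 15 (ITGA5, ITGB5, ITGAM, CD93 and CD44), and proteases and lysosomal enzymes 6 of 27 (MMP14, CTSL, PLAUR, TIMP1, MMP9 and TIMP2). MMP14, which cleaves collagen at the cell surface, had 169, 156 and 17.7 CPM in TACI short replicates 2, 3 and 1, 37.3, 35.2 and 22.1 CPM in TACI long and 14.8, 32.2 and 31.3 CPM in control. ITGAM, the alpha chain of complement receptor 3, had 23.4, 23.5 and 3.44 CPM in TACI short replicates 2, 3 and 1, 5.48, 4.85 and 3.06 CPM in TACI long and 2.15, 3.67 and 4.54 CPM in control. MMP9, the gelatinase of osteoclasts and neutrophils, had 29.3, 28.7 and 2.68 CPM in TACI short replicates 2, 3 and 1, 6.74, 4.89 and 3.01 CPM in TACI long and 2.72, 5.65 and 6.07 CPM in control. The groups TACI long and control overlap for all 3.

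Lipid uptake and storage gave 4 of 19 members: LPL, CD36, HMOX1 and FABP4. LPL, which releases fatty acids from lipoproteins, had 62.2, 60.5 and 6.59 CPM in TACI short replicates 2, 3 and 1, 14.3, 14.2 and 9.13 CPM in TACI long and 5.96, 12.01 and 12.3 CPM in control. S100A4 was the 1 member among 13 listed S100 and metallothionein genes, and S100A6, which the list leaves out, is also in the set. MMP9 and TREM2 were the members among 12 osteoclast and fusion genes, and 0 of 15 eicosanoid genes belonged to the set. The lists name 37 of the 131 members examined singly by role, and 93 are in no list.

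Among those 93 are cytoskeletal genes, picked out after their values were seen: VIM, FSCN1 and ACTN1. VIM, an intermediate filament of mesenchymal cells and leukocytes, had 23.1, 24.6 and 3.40 CPM in TACI short replicates 2, 3 and 1, 5.77, 5.198 and 3.62 CPM in TACI long and 2.02, 4.57 and 4.91 CPM in control. MERTK, a receptor for the uptake of dying cells, and HAVCR2 (TIM-3), found on T cells and myeloid cells, were also members, at 6.50 and 5.83 CPM for MERTK and 12.8 and 12.6 CPM for HAVCR2 in TACI short replicates 2 and 3. They stood at 0.649 to 3.26 CPM in TACI long and 0.717 to 3.22 CPM in control.

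The label of the set as macrophage-like fits its markers in part. Of 26 macrophage and monocyte markers, 7 were members (SPP1, IL1B, CXCL8, MSR1, FCER1G, ITGAM and TYROBP), 9 reached 5 CPM in TACI short replicates 2 and 3, and 13 were under 1 CPM there. SPP1, IL1B, CXCL8 and MSR1 were named as members before the list was drawn up, so their place in it lends the label no support. Of all 10252 genes at or above 5 CPM in these replicates, 1.3% were members. The complement genes C1QB and C1QC and the calprotectin subunit gene S100A8 had no read in any library. CD68, a lysosomal protein of macrophages, averaged 0.378 CPM, MRC1, the mannose receptor, 0.0895 CPM, and MARCO, a scavenger receptor, 0.0623 CPM in TACI short replicates 2 and 3. CD14, the lipopolysaccharide co-receptor, averaged 1.51 CPM and LYZ, lysozyme, 2.24 CPM. CD163, the haemoglobin scavenger receptor, passed the ratio at 14.8 but not the level, at 3.99 CPM. The exons of CD68, LYZ and CD163 overlap other genes. The set thus holds genes known from activated, lipid-handling and matrix-secreting macrophages, while several defining macrophage markers were at or near 0, and no cell type name is given to it here.

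CSF1R, the receptor for macrophage growth factor, and the integrin gene ITGAX were more abundant than most members but failed the ratio. CSF1R had 57.8, 56.7 and 20.2 CPM in TACI short replicates 2, 3 and 1, 11.4, 7.85 and 5.61 CPM in TACI long and 3.85, 8.24 and 8.72 CPM in control. ITGAX had 53.7, 43.5 and 24.8 CPM in TACI short replicates 2, 3 and 1, 7.40, 6.12 and 3.92 CPM in TACI long and 4.17, 6.84 and 7.46 CPM in control. Both were higher in TACI short replicate 1 than in every TACI long and control library, which held for 0 of the 131 members examined singly, as their choice by a low replicate 1 favours.

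**Figure D3:**
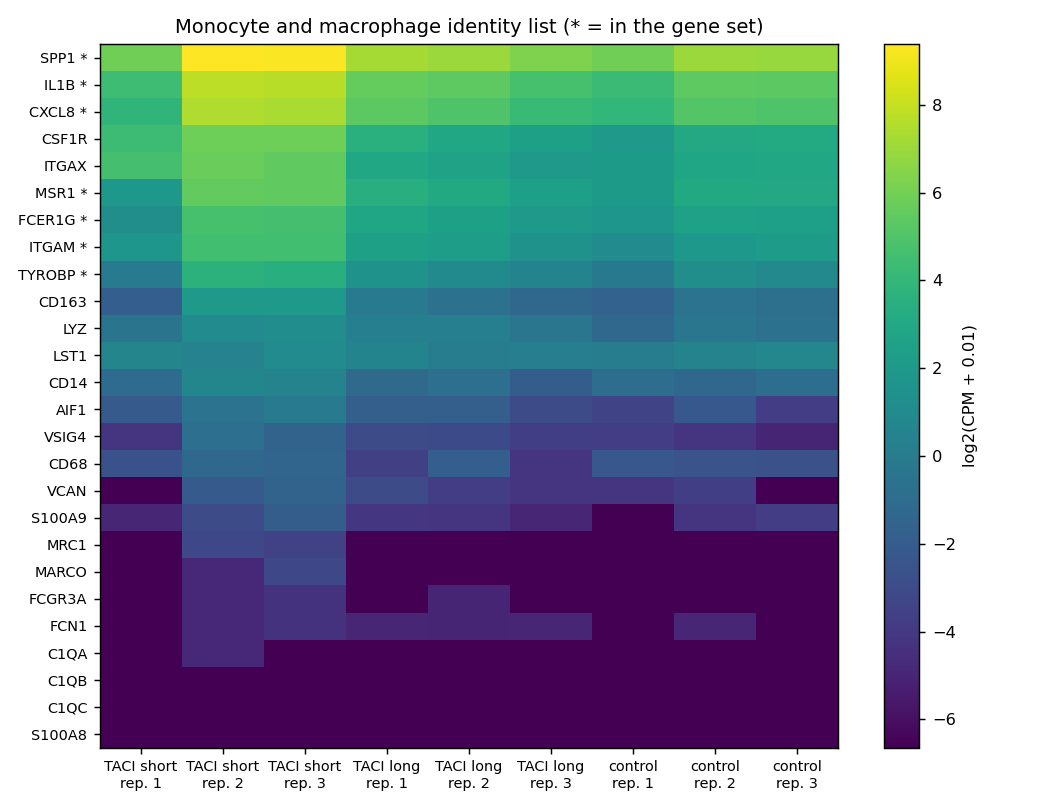
Level of the 26 macrophage and monocyte markers in each library, as log2(CPM + 0.01) (colour; rows, genes; columns, libraries; asterisks, members of the set). The 7 members are highest in TACI short replicates 2 and 3, and C1QB, C1QC and S100A8 are at 0 throughout.

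The whole macrophage list summed to 1300, 1216 and 156.1 CPM in TACI short replicates 2, 3 and 1, 148.4 to 290.1 CPM in TACI long and 117.2 to 243.1 CPM in control. Most of this came from the 7 members, which were chosen for that difference. The 19 other markers summed to 122.7, 112.7 and 48.5 CPM in TACI short replicates 2, 3 and 1, 12.4 to 23.6 CPM in TACI long and 10.8 to 19.97 CPM in control. Markers of other cells contributed few members, but few could. The neutrophil, dendritic cell, mast cell, and erythroid and platelet lists had 0 genes reaching 5 CPM in TACI short replicates 2 and 3. The T and NK cell, fibroblast, endothelial and epithelial lists had 1 each. A count of 0 members in these lists therefore says little on whether their genes share the difference. Neutrophil markers held 0 of 14, with a sum of 8.71, 7.85 and 1.80 CPM in TACI short replicates 2, 3 and 1, 3.82 to 5.51 CPM in TACI long and 2.17 to 2.68 CPM in control. The fibroblast and smooth muscle list also held 0 of 12, with 26.7, 25.7 and 14.0 CPM in TACI short replicates 2, 3 and 1, 8.23 to 9.83 CPM in TACI long and 10.5 to 12.2 CPM in control. PECAM1 was the 1 member among 10 endothelial markers, and the dendritic cell, mast cell, T and NK cell, epithelial, erythroid and platelet, and B cell lists held 0. The 10 B cell markers all stood above 5 CPM, and the mean of TACI short replicates 2 and 3 was 0.911 to 1.03 times replicate 1. The part of any cell mixture, or of a change in the BJAB cells themselves, in the set's level was not tested.

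The members kept nearly fixed proportions across the libraries that had no part in choosing them. SPP1 made up 18.3 to 19.5% of the set's CPM in TACI long and 19.3 to 19.9% in control, and 18.4 to 20% in TACI short. Each member's level was expressed as a percentage of its own mean in TACI short replicates 2 and 3. The median was 23.3, 20.9 and 13.0% in TACI long replicates 1 to 3 and 9.22, 19.4 and 18.8% in control replicates 1 to 3. TACI short replicate 1 had a median of 10.4%, which the rule bounds. Between 126 and 131 of 133 members lay within 1.5-fold of that median in each TACI long library, and between 122 and 133 in each control. Over all members the percentage ran from 8.26 to 35.9% in TACI long and from 5.20 to 27.8% in control. For the other 10119 genes of at least 5 CPM, the medians lay between 95.3 and 97.9% in the same libraries.

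**Figure D4:**
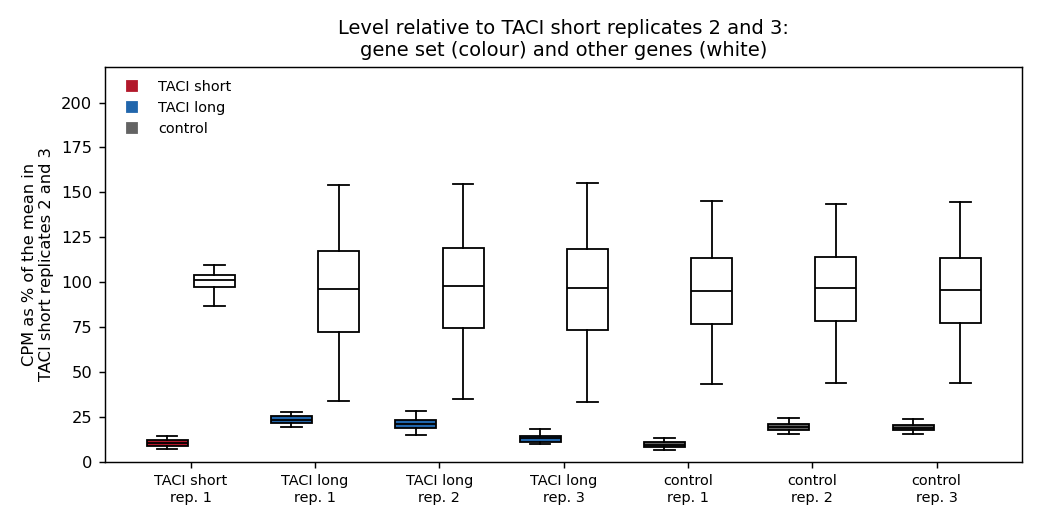
Level of each gene as a percentage of its mean in TACI short replicates 2 and 3, per library (boxes, quartiles; whiskers, 5th to 95th percentiles; coloured, members; white, other genes at 5 CPM or more). Member medians lie between 9.22 and 23.3% in TACI long and control, and those of other genes near 100%.

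Across the 133 members, log2 CPM in each library was set against log2 of the mean in TACI short replicates 2 and 3. Pearson's r was 0.974 to 0.989 in TACI long and 0.968 to 0.987 in control. This is a correlation across genes, which share each library and are not independent replicates, and the members span a wide range of abundance. Replicates 2 and 3 of TACI short differed from each other with a chi-square of 1.17 per degree of freedom over members' shares, where 1 is the value for counting error alone. Against their pooled shares the value was 1.74 to 3.99 in TACI long and 1.61 to 2.41 in control. The proportions were thus close but differed by more than counting error.

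**Figure D5:**
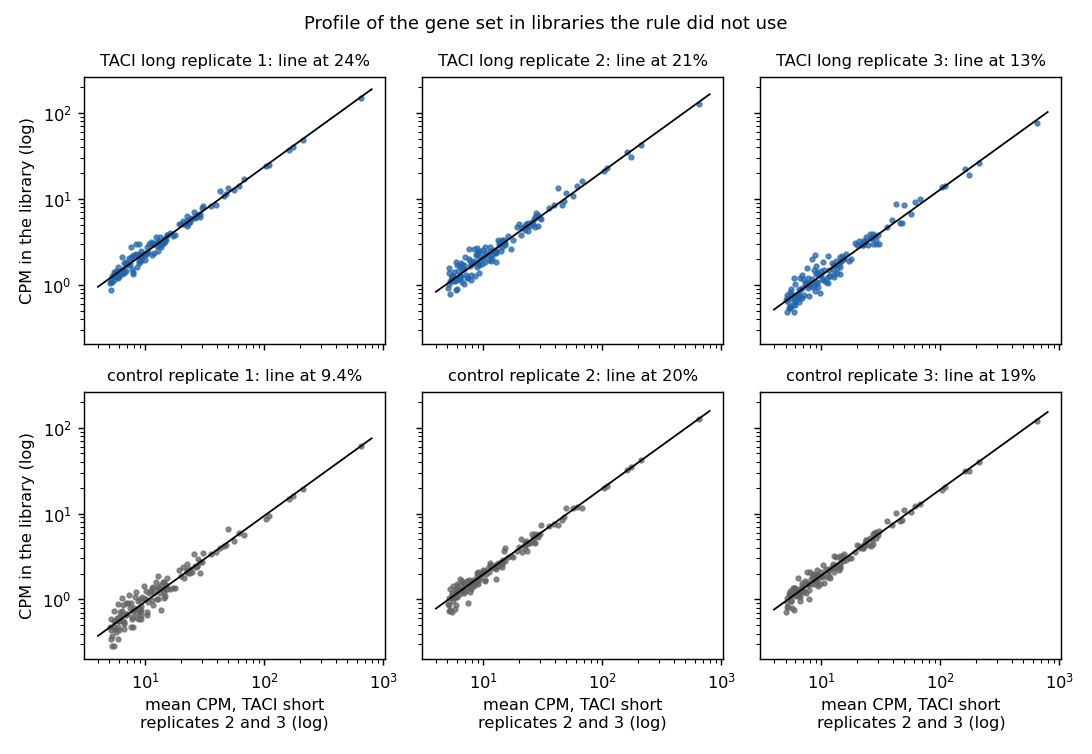
CPM of each of the 131 members examined singly in TACI long and control libraries against its mean CPM in TACI short replicates 2 and 3 (log axes; points, genes; panels, libraries; lines, the summed level of the set as a share of that in TACI short replicates 2 and 3). The points lie along these lines, which stand at 12.8 to 23.7% in TACI long and 9.39 to 19.6% in control.

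Deviations from the common proportion were small. Averaged over the 6 TACI long and control libraries, all 133 members were within 1.5-fold of the set's share, from -0.37 (GLIS3, a zinc-finger transcription factor) to 0.51 (SELENON, a selenoprotein of the endoplasmic reticulum) on the log2 scale. PECAM1, an adhesion molecule of endothelium, platelets and leukocytes, was at 0.47, HMOX1, which degrades haem, at -0.35 and TREM2 at -0.33. HIPK2, a nuclear kinase, had the greatest difference between groups among the 131 members examined singly, with mean deviations of 0.68 in TACI long and -0.17 in control. These genes were singled out after their values were seen.

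The lowest library of each group was the same for the whole set, while the highest was not. All 133 members were lowest in replicate 3 among TACI long libraries and lowest in replicate 1 among controls, against 30.2% and 37.0% of the other 10119 genes. The highest TACI long library was replicate 1 for 101 members and replicate 2 for 32, and the highest control was replicate 2 for 77 and replicate 3 for 56. Library totals did not follow this order: TACI long replicates 1 to 3 had 42314140, 45594349 and 43147210 counts, and control replicates 1 to 3 had 45999342, 43554984 and 46660642.

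TACI long and control are the one pair of groups that the choice of members did not touch, and the comparison asks whether the long isoform goes with a different level of these transcripts. The fit over all 9 libraries takes its estimate of spread in part from the TACI short replicates, which the rule sets at least 6-fold apart for these genes, so its standard errors are wide by construction and a low count of calls is not read as a result. By edgeR's quasi-likelihood test, Benjamini-Hochberg adjusted over 16672 genes, 0 of 133 members were called at the 0.05 threshold, where 51.1% of all genes tested were called (25.2% higher and 25.9% lower). At an unadjusted p under 0.05 in edgeR the count was also 0 of 133, where 9248 of all 16672 genes passed. DESeq2, also fitted with the TACI short libraries, called 0 members and 7759 of 16672 genes. The members' median log2 fold change was 0.29, against -0.003 for all genes tested, and 119 were positive. The summed level was 625 ± 182.9 CPM in TACI long and 523.7 ± 187.4 CPM in control (SD, n = 3). A p that misses the threshold does not show that the groups are alike.

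SPP1 had a log2 fold change of 0.21 ± 0.84 (SE; adjusted p = 0.872), IL1B of 0.23 ± 0.84 (adjusted p = 0.862), CXCL8 of 0.14 ± 0.90 (adjusted p = 0.921) and MSR1 of 0.24 ± 0.91 (adjusted p = 0.864) in this edgeR fit. The groups of 2 members did not overlap, where 60.7% of all genes tested did not: PECAM1 and HIPK2. PECAM1 had 2.95, 2.59 and 2.02 CPM in TACI long and 1.22, 1.49 and 1.93 CPM in control (log2 fold change 0.70 ± 0.67, adjusted p = 0.446 in edgeR). HIPK2 had 2.95, 2.68 and 2.25 CPM in TACI long and 0.587, 1.88 and 1.52 CPM in control (0.99 ± 0.74, adjusted p = 0.33 in edgeR).

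A fit on TACI long and control alone is free of that spread. There edgeR called 4 of 133 members, all higher in TACI long, where 58.6% of all genes tested were called (9115 of 15559), and 1 of the 4 is not described. The others were PECAM1 (log2 fold change 0.71, adjusted p = 0.00138), DOCK5, an activator of Rac (0.70, adjusted p = 0.0204), and ADGRE2, an adhesion receptor of myeloid cells (0.71, adjusted p = 0.0252). ADGRE2 had 1.80, 1.69 and 1.21 CPM in TACI long and 0.522, 1.29 and 1.07 CPM in control, so its groups overlap. In the fit over all libraries, the median of members moved with single libraries: without control replicate 1 it was -0.001 with 66 of 133 positive, without TACI long replicate 1 it was 0.10 with 80 positive, and without TACI long replicate 3 it was 0.49 with 132 positive.

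Set against the other groups, the TACI short libraries show what the rule selected. The median log2 fold change of members was 2.01 against control and 1.73 against TACI long. Both share the TACI short libraries that chose the members, so they carry no test.

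The ratio between TACI short replicates 3 and 2 was not used by the rule, which took their mean. The median log2 ratio of members was -0.12 (quartiles -0.17 and -0.06), against -0.02 (-0.09 and 0.05) for the other 10119 genes of at least 5 CPM. In replicate 3, 116 of 133 members were lower, as were 5677 of those 10119 genes. The members share each library and are not independent replicates. The lowest ratios were those of JUN, a subunit of AP-1 (-0.34), the cadherin FAT1 (-0.30), the retinal reductase gene DHRS3 (-0.29) and the hyaluronan receptor CD44 (-0.28). The highest were those of PARM1 (0.17), RAI14 (0.14), the ectonucleotidase gene NT5E (0.11) and VIM (0.09). All of these are small beside the ratios to replicate 1.

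The ratio of the mean of TACI short replicates 2 and 3 to replicate 1 ran from 6.03 to 16.3, with a median of 9.65. RAB7B, a small GTPase of lysosomal traffic, had the greatest ratio, 16.3, followed by HMOX1 at 15.3, TREM2 at 14.8, CCL3L1 and the fatty acid binding protein gene FABP4 both at 14.6, the tryptophan dioxygenase gene TDO2 at 14.2, CD93 at 13.9 and DDIT4L at 13.8. Just inside the ratio threshold were HIPK2 at 6.03, PECAM1 at 6.21, RAB13 at 6.43 and PHLDA1 at 6.59. Just outside it were KCNN4 at 5.93, PCSK6 at 5.82, CD109 at 5.63 and ENAH at 5.61. By level, IRS2 (5.03 CPM), TMEM158 (5.11), COL6A2 (5.12) and FUCA2 (5.14) were just inside, and CITED4 (4.998), CFD (4.97), TRPM2 (4.90) and CLEC11A (4.90) just outside.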

How the data were processed

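The 9 files hold read counts per gene, raw and not normalized, as deposited by the authors. FastQC, STAR 2.4.0h, HTSeq and build hg38 are named in the submitters' processing notes, while the columns are laid out as featureCounts writes them; annotation release and strand setting are not given in the sources used here. Nextera XT libraries do not keep strand, per the labels' protocols, which also give RNA integrity above 8. Of 57500 gene IDs, 56898 were in GENCODE 29, the source of gene types.

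CPM used column totals, and RPKM the deposited gene lengths. Genes were kept by filterByExpr (minimum count 10, minimum total 15), scaled with TMM factors and tested over 9 libraries in edgeR 4.0.16 (R 4.3.3), by the quasi-likelihood test with robust fitting. There were 6 residual degrees of freedom, and the common biological coefficient of variation was 0.0792. Calls had a Benjamini-Hochberg adjusted p under 0.05. All 133 members passed the filter, also without the TACI short libraries. Standard errors are the absolute log2 fold change over the square root of F. The rule for naming genes takes SPP1, IL1B, CXCL8 and MSR1, the 12 members highest in RPKM, the 8 largest ratios, up to 4 per role list, the genes at the thresholds and called members; text marks genes picked later, and not every gene it takes is printed. Members and lists were chosen with earlier results of these data known. DESeq2 1.42.0, other scalings, filters, thresholds, the replicate block and each library left out were alternatives. Figures used matplotlib 3.10.9.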

Additional observations from a re-analysis of the deposited data

How the results depend on the processing

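The number of members depends on the thresholds: 272 at a mean of at least 2 CPM, 69 at 10 CPM and 28 at 12 times TACI short replicate 1, against 133; with at least 4 times replicate 1, replicate 2 or 3 alone, or TMM-scaled CPM it was 164, 143, 127 and 124. In TACI long against control, 0 members were called, but 4 with TACI long and control alone and 4 without TACI short replicates 2 and 3 (edgeR, all higher), where 9115 of 15559 and 9382 of 17628 genes were called in all. Leaving out each library in turn gave 0 to 5 members called, with 5 when TACI short replicate 1 was left out, HIPK2 among them (log2 fold change 0.99, adjusted p = 0.0409 in edgeR; 9142 of 17420 genes called), and 7308 to 9142 genes called in all, against 8518. The log2 fold change then ran from -0.06 to 0.44 for SPP1, -0.05 to 0.44 for IL1B, -0.13 to 0.39 for CXCL8 and -0.02 to 0.48 for MSR1. The replicate numbers did not pair TACI long with control (correlation of deviations -0.13, 0.07 and -0.12 for numbers 1 to 3). Between TACI short and control it was 0.45, 0.23 and 0.19, and between TACI short and TACI long -0.30, 0.12 and -0.29. With the replicate block 0 members and 8620 genes were called, the members' median was 0.43 and 132 were positive. By the rule, the set is a difference between libraries of TACI short. Replicate 1 held 333.1 CPM of the set at 2964 CPM of TNFRSF13B. Replicates 2 and 3 held 3398 and 3156 CPM of the set at 2965 and 2655 CPM of TNFRSF13B. With 3 libraries a group, and members chosen on all 3 TACI short libraries, an effect of the short isoform on these genes was not tested.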

Other observations

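The same proportions held below the 5 CPM limit of the set. The 269 genes with a mean of 1 to 5 CPM in TACI short replicates 2 and 3 that passed the ratio had medians of 23.0, 20.6 and 13.3% of that mean in TACI long replicates 1 to 3 and of 9.52, 19.3 and 19.02% in control replicates 1 to 3. The members' medians were 23.3, 20.9 and 13.0% in TACI long and 9.22, 19.4 and 18.8% in control. These genes were looked at after the members' values were seen, and no test was made.

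Among neutrophil markers, AZU1, a granule protein, passed the ratio at 11.6 with a mean of 4.19 CPM in TACI short replicates 2 and 3. MMP8 also passed it, at 14.1 with 1.91 CPM, while CAMP did not, at 0.876 with 1.04 CPM. The other 11 averaged under 1 CPM there. The collagen gene COL1A1 averaged 10.6 CPM in TACI short replicates 2 and 3, at 3.27 times replicate 1. COL1A2, of the same list, passed the ratio at 6.21 with 4.05 CPM. ACTA2, DCN, TAGLN and COL6A3 of that list did not, at 0.914 to 1.17.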
